A study of Mus musculus with 39 samples.

Results

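The 40 genes described here are those of the white adipocyte's lipid store: secreted adipokines, lipid droplet proteins and lipases, carriers that bring fatty acids and glucose into the cell, enzymes that make fatty acids and triglyceride, and the transcription factors behind them. They were listed by name and matched to probe sets through the array's platform annotation. Of the 40 genes, 36 had a probe set and make up the members, out of 18194 genes measured; Plin1, Cfd, Acsl1 and Adrb3 were not analysed here. Where a gene had several probe sets, the one with the highest mean over all 39 arrays stood for it.

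The study profiled mouse tissue on 39 Affymetrix arrays, with genotypes named after the Sleeping Beauty transposon system, a mobile DNA element used to mutate genes at random. Breast samples of the genotype Quadruple (SB/Tg/K5Cre/Bcat) filled 19 arrays from 15 animals, those of Triple (SB/Tg/k5Cre) 8 arrays from 8 animals and those of Triple (SB/Tg/Bcat) 3 arrays from 2 animals. Breast samples called bcat +/- masses gave 2 arrays from 2 animals, and Bcat +/- tumours of the ventral side gave 3 arrays from 1 animal. Titles of these last 2 groups alone carry the mark C57. What it stands for and the Bcat +/- genotype cannot be told apart in their comparisons with gland or with quadruple samples. The normal mammary gland group holds 4 arrays, each of its own animal, of which 1 was Triple (SB/Tg/Bcat), 1 was Quadruple and 2 were Triple (SB/Tg/k5Cre). The gland thus mixes 3 transgenic genotypes for every comparison and holds no Bcat +/- animal. The labels spell out neither the genotype abbreviations nor ages, and they call the Quadruple and Triple samples breast rather than tumour. Animals were read from the identifiers in the sample titles, and the ventral tumours speak for a single animal.

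White adipocytes surround the epithelium of the mouse mammary gland and make up much of its volume. They take up fatty acids released by lipoprotein lipase, make others from glucose, join them to glycerol as triglyceride and keep the product in a droplet coated by perilipins and CIDE proteins. PPARgamma and C/EBPalpha switch these genes on during fat cell differentiation, whereas SREBP-1c and ChREBP drive the enzymes of fatty acid synthesis, which milk-producing epithelium uses too.

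Stretches of 250 bases upstream of the RefSeq transcription start (mouse build GRCm38.p6) were searched for letters known from regulators of fat cell genes. Windows were present for 28 of the 36 members. The C/EBP palindrome TTGCGCAA, searched on both strands, was found in 1 member, Lep, and in 0.164% of all 32851 windows (which cover 250 bases before the start). In Lep it lies 55 to 48 bases before the start, in chr6:29059971-29060220 on the plus strand, and is shown in capitals because it was the rarest match among the members.
Lep: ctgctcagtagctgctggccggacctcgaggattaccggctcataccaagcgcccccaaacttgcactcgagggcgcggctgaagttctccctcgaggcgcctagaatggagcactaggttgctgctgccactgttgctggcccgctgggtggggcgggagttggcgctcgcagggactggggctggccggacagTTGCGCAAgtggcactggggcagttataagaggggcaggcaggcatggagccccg

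The CCAAT box, read on both strands as CCAAT or ATTGG, occurred in 15 of the 41 windows of members and in 33.8% of all windows, so its frequency among members was close to that of any gene. Of the 13 members that held it, 3 are shown, from roles that are read beside each other below. They are Adipoq (chr16:23146286-23146535, plus strand), a product of the fat cell, and Thrsp (chr7:97417551-97417800, minus strand) and Fasn (chr11:120824548-120824797, minus strand), which belong to fatty acid synthesis. Capitals mark each box, and in Fasn a pair of boxes on opposite strands overlap.
Adipoq: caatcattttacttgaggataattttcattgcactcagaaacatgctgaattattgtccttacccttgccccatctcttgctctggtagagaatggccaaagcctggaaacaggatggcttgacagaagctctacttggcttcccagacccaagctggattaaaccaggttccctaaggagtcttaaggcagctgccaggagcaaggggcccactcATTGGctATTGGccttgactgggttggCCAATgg
Thrsp: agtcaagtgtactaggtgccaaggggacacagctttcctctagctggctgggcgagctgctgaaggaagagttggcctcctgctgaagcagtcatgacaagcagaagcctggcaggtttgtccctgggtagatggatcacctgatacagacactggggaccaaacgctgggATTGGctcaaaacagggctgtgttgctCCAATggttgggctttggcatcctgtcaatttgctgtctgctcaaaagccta
Fasn: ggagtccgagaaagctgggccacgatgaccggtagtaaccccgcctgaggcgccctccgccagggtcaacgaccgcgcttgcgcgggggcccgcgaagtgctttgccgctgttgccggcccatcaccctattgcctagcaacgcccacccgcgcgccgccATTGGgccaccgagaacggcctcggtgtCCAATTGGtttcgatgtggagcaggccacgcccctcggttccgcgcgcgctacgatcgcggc

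The E-box CACGTG was found in 3 of 41 windows of members (7.32%; Lipe, Mlxipl and Pcx), against 6.02% of all windows. The SREBP site TCACNCCAC was in 1 of 41 (2.44%; Mlxipl), against 1.05%. The TATA box TATAAA stood in 3 of 41 (7.32%; Cebpa, Pparg and Rbp4), against 12.4%. The DR1 element of PPAR receptors, allowing 1 mismatch, was in none of the members' windows and in 0.484% of all windows. A match names letters only, and its absence from this window says nothing about binding elsewhere.

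Array medians were alike, between 5.10 and 5.27 on the log2 scale of the deposited signals. Normal gland held the defining markers of white adipocytes at high signal, with Adipoq between 13.67 and 13.93 and Fabp4 between 14.03 and 14.35 in its 4 arrays, so adipocyte RNA was abundant in them. The same gland arrays were rich in skeletal muscle RNA, with a mean over 12 muscle genes between 10.93 and 12.50. That mean had medians of 4.91 in quadruple and 4.69 in triple k5Cre arrays, with highest values of 11.25 and 11.85. Xist, transcribed from the inactive X chromosome, was lowest on 3 arrays (quadruple 5, triple k5Cre 2 and gland 3, the last pair from the same animal), where 5.64 was the lowest signal, and was 10.77 to 12.86 on the others. Quadruple arrays 2, 3, 5 and 9 stood apart in the members. The spread below is also given without all 4, and the counts of calls with each left out in turn. Correlations are also given without the animals of arrays 3, 5 and 9, and without a pair of animals that includes that of array 2.

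In the quadruple samples 34 of the 36 members fell against normal gland, and none rose. The median difference over the members was -2.84 on the log2 scale, beside 0.01 over all genes. By role, the median difference was -6.30 for the secreted proteins, -4.55 for droplet and lipolysis genes and -2.24 for fatty acid synthesis. Srebf1 and Car3 were the members that did not pass. The test was limma on all 39 arrays with the animal as a random block and Benjamini-Hochberg adjusted p under 0.05, and among all genes 9.66% were called lower and 5.7% higher. A loss of adipocytes and less of these RNAs per adipocyte cannot be told apart in bulk tissue. The gland arrays were also rich in muscle RNA, as given above, and its part in these differences was not tested.

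**Figure D1:**
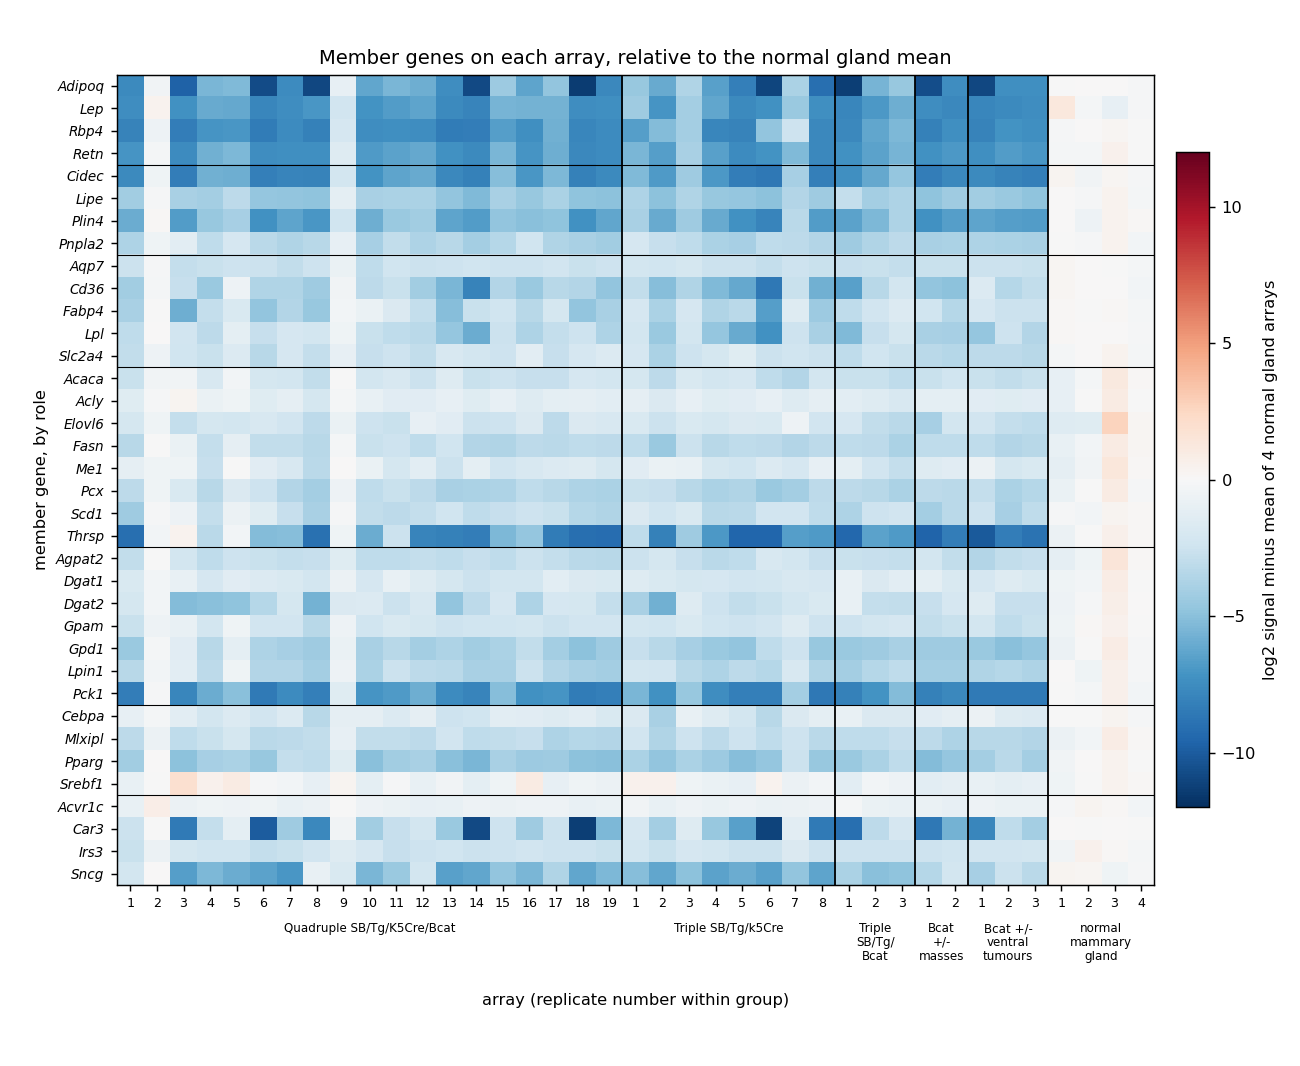
Log2 signal of the 36 members (rows, by role) on each of the 39 arrays (columns, by group), minus the mean of the 4 normal gland arrays; blue is lower and red higher. Nearly all members are blue outside the gland, quadruple arrays 2 and 9 are pale throughout, and quadruple arrays 3 and 5 are pale mainly in the rows of fatty acid synthesis.

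The 4 secreted proteins all fell in quadruple and triple k5Cre samples. Adipoq encodes adiponectin, the most abundant adipokine. Its log2 signal ran from 2.47 through a median of 7.55 to 13.46 in quadruple arrays and from 2.78 through 7.53 to 10.24 in triple k5Cre arrays. It was 2.56, 8.27 and 9.25 in triple Bcat, 3.20 and 6.34 in Bcat masses and 2.92, 6.50 and 6.45 in the ventral tumours, against 13.83, 13.92, 13.93 and 13.67 in gland. Every array outside the gland lay below every gland array, although quadruple arrays 2 (13.46) and 9 (12.81) came close. Adipoq fell by 6.46 ± 1.57 (SE) in quadruple samples, which is 88-fold (limma adjusted p 0.0035), and by 6.27 ± 1.62 in triple k5Cre samples (adjusted p 0.00569). The wide spread between arrays shows in the standard error.

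Lep encodes leptin, the hormone that reports fat stores to the brain. It measured 3.60, 4.54 and 11.97 at the lowest, median and highest quadruple array and 3.86, 4.85 and 7.42 in triple k5Cre. In triple Bcat it was 3.68, 4.68 and 5.69, in Bcat masses 4.04 and 3.80, and in the ventral tumours 3.72, 3.88 and 4.05, against 12.83, 11.28, 10.58 and 11.41 in gland. Only quadruple array 2 reached the range of the gland, and in the other 4 groups no array exceeded 7.42. The limma difference was -6.14 ± 0.94 in quadruple samples (adjusted p 1.8e-05) and -5.91 ± 0.98 in triple k5Cre samples (adjusted p 4.4e-05).

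Rbp4, a carrier of retinol that fat cells and liver secrete, had the most negative difference of all members in quadruple samples, -6.72 ± 1.01 (limma adjusted p 1.23e-05), or 105-fold. Its quadruple arrays spanned 4.02, 4.95 and 11.77 (lowest, median, highest) and its triple k5Cre arrays 4.41, 6.52 and 9.98. The smaller groups had 4.71, 6.20 and 7.06 (triple Bcat), 4.27 and 5.05 (Bcat masses) and 4.40, 5.21 and 5.05 (ventral tumours), against 12.25, 12.45, 12.63 and 12.37 in gland. No array outside the gland overlapped it. Retn, which encodes resistin, had the smallest difference of the 4 secreted proteins, at -6.02 ± 0.92 (adjusted p 1.48e-05). Retn arrays ran from 5.31 through 5.96 to 12.82 in quadruple and from 5.29 through 6.47 to 9.18 in triple k5Cre, against 12.83, 12.81, 13.52 and 12.94 in gland. They were 5.74, 6.56 and 7.45 in triple Bcat, 5.72 and 6.14 in Bcat masses and 5.68, 6.36 and 6.08 in ventral tumours. Quadruple array 2 alone fell within the gland's range of Retn.

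All 4 members of the lipid droplet and of lipolysis fell in quadruple samples, with a median difference of -4.55. Cidec, the droplet protein that lets lipid pass between droplets so that a single large one forms, was the most reduced. Its quadruple arrays lay between 3.53 and 11.26 with a median of 4.58, and its triple k5Cre arrays between 3.24 and 7.76 with a median of 4.94. It measured 4.39, 5.69 and 7.13 in triple Bcat, 3.45 and 4.03 in Bcat masses and 4.10, 3.80 and 3.60 in ventral tumours, against 12.13, 11.40, 12.01 and 11.60 in gland. The gland was above every other array. The difference was -6.30 ± 0.99 in quadruple samples (limma adjusted p 2.43e-05), or 78.8-fold, and -6.37 ± 1.03 in triple k5Cre samples (adjusted p 3.18e-05).

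Plin4, a perilipin of small lipid droplets, fell by 5.15 ± 0.88 in quadruple samples and Lipe, the hormone-sensitive lipase, by 3.94 ± 0.55 (limma adjusted p 7.73e-05 and 3.84e-06). Pnpla2 encodes the lipase that starts triglyceride breakdown and was the least reduced of this role. In quadruple arrays Pnpla2 ran from 6.88 through 7.67 to 10.52 and in triple k5Cre arrays from 7.09 through 7.93 to 8.99. It was between 6.80 and 7.88 in triple Bcat, 7.13 and 7.21 in Bcat masses and 7.32, 7.22 and 7.17 in ventral tumours, against 11.02, 10.92, 11.45 and 10.75 in gland. No array overlapped the gland, and the quadruple difference was -2.94 ± 0.47 (adjusted p 3e-05).

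The 5 members of uptake and transport fell by less, with a median of -2.64 in quadruple samples. Cd36, the scavenger receptor that carries fatty acids across the membrane, had the largest difference. Its quadruple arrays ran from 4.67 through 9.06 to 12.46 and its triple k5Cre arrays from 4.13 through 7.51 to 10.01. Triple Bcat arrays had 6.17, 9.33 and 10.52, Bcat masses 7.98 and 7.77 and ventral tumours 11.02, 9.26 and 9.70, against 12.91, 12.75, 12.72 and 12.41 in gland. Quadruple array 2 overlapped the gland. Cd36 fell by 3.45 ± 0.93 in quadruple samples (limma adjusted p 0.00824) and by 4.86 ± 0.96 in triple k5Cre samples (adjusted p 0.000356), and did not pass in triple Bcat (-4.15 ± 1.36, adjusted p 0.0553) or in the ventral tumours (-2.58 ± 1.51, adjusted p 0.376). Endothelial cells also make Cd36. The mean of 9 endothelial marker genes was 7.37, 8.24 and 8.22 on ventral arrays 1, 2 and 3, against 7.41 to 7.78 in gland. Cd36 on the same arrays, all of 1 animal, was 11.02, 9.26 and 9.70. The part of endothelium in the Cd36 value was not tested.

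Fabp4, the cytosolic fatty acid carrier of adipocytes, which macrophages and endothelium express too, kept signal in every sample. Quadruple arrays measured 8.36, 11.39 and 14.22 (lowest, median, highest) and triple k5Cre arrays 7.62, 10.79 and 12.69. The other groups had 11.20, 11.90 and 12.61 (triple Bcat), 11.88 and 10.80 (Bcat masses) and 12.19, 11.68 and 11.65 (ventral tumours), against 14.35, 14.22, 14.34 and 14.03 in gland. Apart from quadruple array 2, every array was below the gland. Fabp4 fell by 2.96 ± 0.79 in quadruple samples (limma adjusted p 0.00769), but in triple Bcat, Bcat masses and ventral tumours its differences of -2.31, -2.81 and -2.31 did not pass (adjusted p 0.232, 0.175 and 0.346).

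Lpl, the lipase that frees fatty acids from circulating lipoproteins, fell by 2.64 ± 0.75 in quadruple samples (limma adjusted p 0.0128), and without gland array 3 it no longer passed (-2.53, adjusted p 0.0584). Slc2a4, the insulin-regulated glucose transporter of fat and muscle, fell by 2.33 ± 0.36 (adjusted p 1.89e-05). Aqp7, the channel through which glycerol leaves the fat cell, had the smallest difference of the role. Its quadruple arrays ran from 2.80 through 3.33 to 5.72 and its triple k5Cre arrays from 3.00 through 3.30 to 3.70. It was 3.10, 3.13 and 2.99 in triple Bcat, 3.11 and 3.19 in Bcat masses and 3.22, 3.25 and 3.19 in ventral tumours, against 6.04, 5.88, 5.82 and 5.57 in gland. Only quadruple array 2 reached the gland, and the difference was -2.32 ± 0.30 (adjusted p 1.28e-06). Its cross-hybridising second probe set differed more, with means of 3.11 in quadruple arrays and 8.02 in gland.

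**Figure D2:**
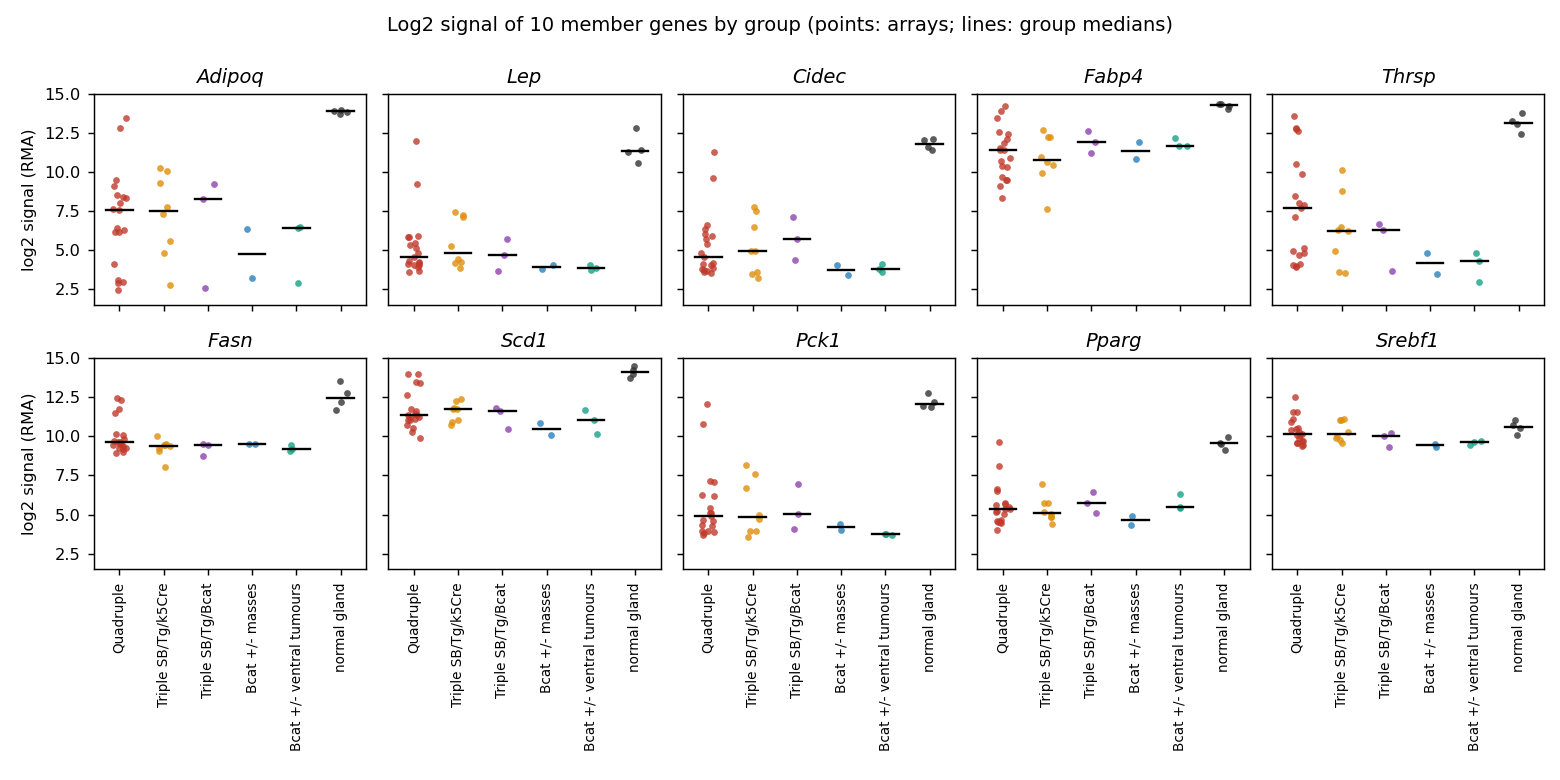
Log2 signal of 10 members on every array, by group, with a line at each group's median. The gland lies above the other groups for Adipoq, Lep, Cidec and Pck1 except for quadruple arrays near its range, Thrsp and Fasn have 4 quadruple arrays near the gland, and Srebf1 overlaps in the quadruple, triple k5Cre and triple Bcat groups.

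All 8 members of fatty acid synthesis fell in quadruple samples, with a median of -2.24. Thrsp, the lipogenic factor known as Spot 14, was the most reduced and the most scattered. Its quadruple arrays reached from 3.93 through a median of 7.69 to 13.56 and its triple k5Cre arrays from 3.56 through 6.25 to 10.10. It was 3.69, 6.65 and 6.30 in triple Bcat, 3.47 and 4.85 in Bcat masses and 3.00, 4.82 and 4.29 in ventral tumours, against 12.40, 13.07, 13.73 and 13.22 in gland. Quadruple arrays 2 (12.76), 3 (13.56), 5 (12.82) and 9 (12.62) lay within the gland's range while the other 15 lay below it, as did every array of the other 4 groups. Thrsp fell by 5.08 ± 1.49 in quadruple samples (limma adjusted p 0.0167), and without gland array 3 it did not pass (-4.68, adjusted p 0.0831).

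Fasn, fatty acid synthase itself, had a quadruple range of 8.96 to 12.45 with a median of 9.61 and a triple k5Cre range of 8.06 to 9.99 with a median of 9.41. It measured 9.48, 9.41 and 8.75 in triple Bcat, 9.53 and 9.53 in Bcat masses and 9.46, 9.06 and 9.20 in ventral tumours, against 11.67, 12.17, 13.53 and 12.76 in gland. Quadruple arrays 2, 3 and 9 overlapped the gland and no other array did. The difference was -2.57 ± 0.51 in quadruple samples (limma adjusted p 0.000411) and -3.40 ± 0.52 in triple k5Cre samples (adjusted p 1.73e-05).

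Scd1, which places the first double bond into a saturated fatty acid, ran from 9.87 through 11.36 to 13.98 in quadruple and from 10.74 through 11.77 to 12.40 in triple k5Cre arrays. In triple Bcat it was 10.44, 11.59 and 11.81, in Bcat masses 10.06 and 10.84, and in ventral tumours 11.66, 10.14 and 11.06, against 13.75 to 14.46 over the 4 gland arrays. Quadruple arrays 2 and 9 fell within the gland's range. Scd1 fell by 2.30 ± 0.55 in quadruple samples (limma adjusted p 0.00336).

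Acly, the ATP citrate lyase that supplies cytosolic acetyl-CoA to every growing cell, had the smallest difference of the role. Its quadruple arrays lay between 10.02 and 12.48 (median 11.07) and its triple k5Cre arrays between 10.46 and 11.23 (median 10.96). It was 10.93, 10.62 and 10.21 in triple Bcat, 10.96 and 11.03 in Bcat masses and 10.82, 10.74 and 10.80 in ventral tumours, against 11.22, 12.15, 13.19 and 12.13 in gland. The lowest gland array was within the range of the quadruple and triple k5Cre groups. Acly fell by 1.05 ± 0.29 in quadruple samples (limma adjusted p 0.0112), or 2.07-fold, and without gland array 3 the value was -0.65 (adjusted p 0.193).

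Of the other enzymes, Pcx, the pyruvate carboxylase that feeds citrate export, fell by 2.84 ± 0.48 and Acaca, the acetyl-CoA carboxylase of the committed step, by 1.91 ± 0.45 in quadruple samples (limma adjusted p 6.88e-05 and 0.00247). Elovl6, which lengthens palmitate, fell by 2.18 ± 0.51 and Me1, the malic enzyme that supplies NADPH, by 1.45 ± 0.48 (adjusted p 0.00255 and 0.0333). The gland was itself uneven in these genes: Elovl6 had 8.79, 8.93, 13.05 and 10.60 in its 4 arrays, gland array 3 being the highest. Without that array, Acaca (-1.44, adjusted p 0.0543), Elovl6 (-1.19, adjusted p 0.105) and Me1 (-1.01, adjusted p 0.255) did not pass. Me1 did not pass either without gland array 2 (-1.57, adjusted p 0.054) or 4 (-1.47, adjusted p 0.0785), without the arrays low in Xist (-1.09, adjusted p 0.185) or with the compared groups alone (-1.53, adjusted p 0.0594).

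All 7 members of triglyceride synthesis and glyceroneogenesis fell in quadruple samples, with a median of -2.83. Pck1, the carboxykinase with which fat cells make glycerol phosphate from pyruvate, stood out from the others of its role. It ran from 3.70 through 4.88 to 12.03 in quadruple arrays and from 3.60 through 4.82 to 8.15 in triple k5Cre arrays. The smaller groups had 4.11, 5.01 and 6.95 (triple Bcat), 4.04 and 4.42 (Bcat masses) and 3.73, 3.70 and 3.74 (ventral tumours), against 12.18, 11.92, 12.79 and 11.84 in gland. Quadruple array 2 alone overlapped the gland. The difference was -6.41 ± 1.07 in quadruple samples (limma adjusted p 5.67e-05), or 85-fold, and -8.33 ± 1.75 in the ventral tumours (adjusted p 0.00432).

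Gpd1, which makes glycerol phosphate from a glycolytic intermediate, fell by 3.27 ± 0.61 and Dgat2, an acyltransferase of the last step to triglyceride, by 3.20 ± 0.74 in quadruple samples (limma adjusted p 0.000202 and 0.00231). Lpin1 fell by 2.83, Agpat2 by 2.64 and Gpam by 1.99, which are the phosphatase and the acyltransferases of the steps before (adjusted p 0.000413, 5.03e-06 and 0.000166). Dgat1, the other acyltransferase of the last step and widely expressed, had the smallest difference. Its quadruple arrays spanned 7.17, 7.92 and 9.45 (lowest, median, highest) and its triple k5Cre arrays 7.45, 7.72 and 8.16. It was 8.84, 7.99 and 8.52 in triple Bcat, 8.60 and 7.95 in Bcat masses and 7.73, 8.18 and 7.95 in ventral tumours, against 9.25, 9.37, 10.65 and 9.69 in gland. Quadruple array 2 alone overlapped the gland, and Dgat1 fell by 1.65 ± 0.29 in quadruple samples (adjusted p 9.28e-05).

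Of the 4 transcription factors 3 fell in quadruple samples. Pparg, the nuclear receptor required for fat cell differentiation, ran from 4.01 through 5.35 to 9.61 in quadruple and from 4.43 through 5.10 to 6.93 in triple k5Cre arrays. It was 5.09, 5.73 and 6.47 in triple Bcat, 4.36 and 4.89 in Bcat masses and 5.45, 6.30 and 5.47 in ventral tumours, against 9.13, 9.59, 9.93 and 9.50 in gland. Quadruple array 2 overlapped the gland and no other array did. Pparg fell by 3.99 ± 0.60 in quadruple samples (limma adjusted p 1.17e-05), Mlxipl, which encodes ChREBP, by 2.84 ± 0.37 (adjusted p 9.91e-07) and Cebpa by 1.67 ± 0.42 (adjusted p 0.00431). Without gland array 3 Cebpa did not pass (-1.37, adjusted p 0.0567).

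Srebf1 encodes SREBP-1, the sterol-related factor that switches on Fasn, Acaca and Scd1. Its quadruple arrays ran from 9.37 through 10.13 to 12.53 and its triple k5Cre arrays from 9.58 through 10.15 to 11.07. It was 9.34, 10.23 and 10.01 in triple Bcat, 9.31 and 9.52 in Bcat masses and 9.67, 9.44 and 9.63 in ventral tumours, against 10.11, 10.54, 11.01 and 10.69 in gland. Arrays of 3 groups overlapped the gland: 9 of 19 quadruple and 4 of 8 triple k5Cre arrays lay below its lowest array, and triple Bcat array 2 lay above it. The difference was -0.14 ± 0.38 in quadruple samples (limma adjusted p 0.866) and -0.24 ± 0.39 in triple k5Cre samples (adjusted p 0.742). Srebf1 did not pass in the other 3 groups either, with -0.76, -1.15 and -0.99 in triple Bcat, Bcat masses and ventral tumours (adjusted p 0.451, 0.261 and 0.418).

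Among the 4 remaining members, Sncg, a synuclein of fat cells and neurons, had the largest difference. Its quadruple arrays ran from 4.83 through 6.44 to 11.83 and its triple k5Cre arrays from 5.33 through 5.71 to 7.08. It was 7.97, 6.74 and 6.99 in triple Bcat, 8.41 and 9.56 in Bcat masses and 7.84, 9.19 and 8.55 in ventral tumours, against 12.14, 12.06, 11.31 and 11.69 in gland. Quadruple array 2 overlapped the gland. Sncg fell by 4.66 ± 0.86 in quadruple samples (limma adjusted p 0.00019) and did not pass in Bcat masses (-2.77, adjusted p 0.233) or ventral tumours (-3.23, adjusted p 0.197). Irs3, an insulin receptor substrate that rodents express in fat, fell by 2.35 ± 0.23 in quadruple samples (adjusted p 8.92e-09).

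Car3, the carbonic anhydrase abundant in fat and in slow muscle, had the widest spread of all members. It ran from 3.26 through 10.37 to 14.43 in quadruple and from 3.37 through 10.20 to 13.29 in triple k5Cre arrays, against 14.55, 14.46, 14.61 and 14.46 in gland. In triple Bcat it was 5.43, 11.34 and 12.48, in Bcat masses 5.96 and 8.86, and in ventral tumours 6.67, 11.46 and 10.40. The gland was above every other array, yet the difference of -4.26 ± 1.76 in quadruple samples did not pass (limma adjusted p 0.0986), nor did it in the other comparisons with gland. The random-block fit shares 1 spread estimate over groups, and the quadruple SD of Car3 was 3.43. On its other probe sets the means in quadruple arrays and gland differed by -5.80, -5.70 and -5.78, against -4.62 on the chosen one. Acvr1c, the activin receptor ALK7, had the smallest difference that passed. Its chosen probe set ran from 4.09 through 4.41 to 5.92 in quadruple and from 4.26 through 4.42 to 4.69 in triple k5Cre. It was 4.83, 4.32 and 4.21 in triple Bcat, 4.35 and 4.10 in Bcat masses and 4.50, 4.31 and 4.31 in ventral tumours, against 4.94, 5.42, 5.26 and 4.81 in gland, a difference of -0.62 ± 0.18 (adjusted p 0.015). Probe sets of Acvr1c disagreed in size: group means differed by -4.03 and -4.61 on the other pair, and without gland array 2 or 3 the chosen one did not pass (adjusted p 0.09 and 0.0905).

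Of the 36 members, 22 had further probe sets, 40 in all. Of these 40, 35 had a lower mean in quadruple arrays than in gland and 5 a higher one. Those 5 were dim in both groups, with means between 2.42 and 4.04, and were higher by only 0.02 to 0.16. Pcx was represented by a control-type probe set of the array, and the gene's ordinary one differed by -3.03, against -2.90 in means of the chosen one.

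In the triple k5Cre samples all 36 members had a negative difference from gland, and the 5 comparisons with gland share its 4 arrays, so that they are not independent. In triple k5Cre 34 members fell, with a median of -3.21 beside 0.02 over all genes, and 9.79% of all genes were called lower. Srebf1 and Car3 did not pass. In triple Bcat 27 members fell (median -3.34, 5.38% of all genes called lower) and in Bcat masses 28 (median -3.47, 4.68%). In the ventral tumours 24 fell (median -3.31, 3.22%). None rose in any of these, and all 36 differences were negative in each. The smaller groups have fewer arrays and wider errors: the median SE of the members was 0.90 in the ventral tumours and 0.55 in quadruple samples.

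Without triple Bcat array 1, 13 members were called in that group, and without Bcat masses array 1 or 2, 6 or 15 were. In the ventral tumours 15 were called without gland array 3, and 10 when the 3 arrays, all of 1 animal, were averaged into 1 value. The share of all genes called under each of these settings is not given, so these counts do not show whether other genes lost calls too. With all arrays, the members that did not pass in triple Bcat were Cd36, Fabp4, Me1, Dgat1, Dgat2, Cebpa, Srebf1, Acvr1c and Car3. In Bcat masses they were Fabp4, Acly, Me1, Dgat2, Cebpa, Srebf1, Car3 and Sncg. Adipoq itself missed the threshold in the ventral tumours (-8.24 ± 2.55, adjusted p 0.0585), where its arrays nevertheless lay below the gland.

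**Figure D3:**
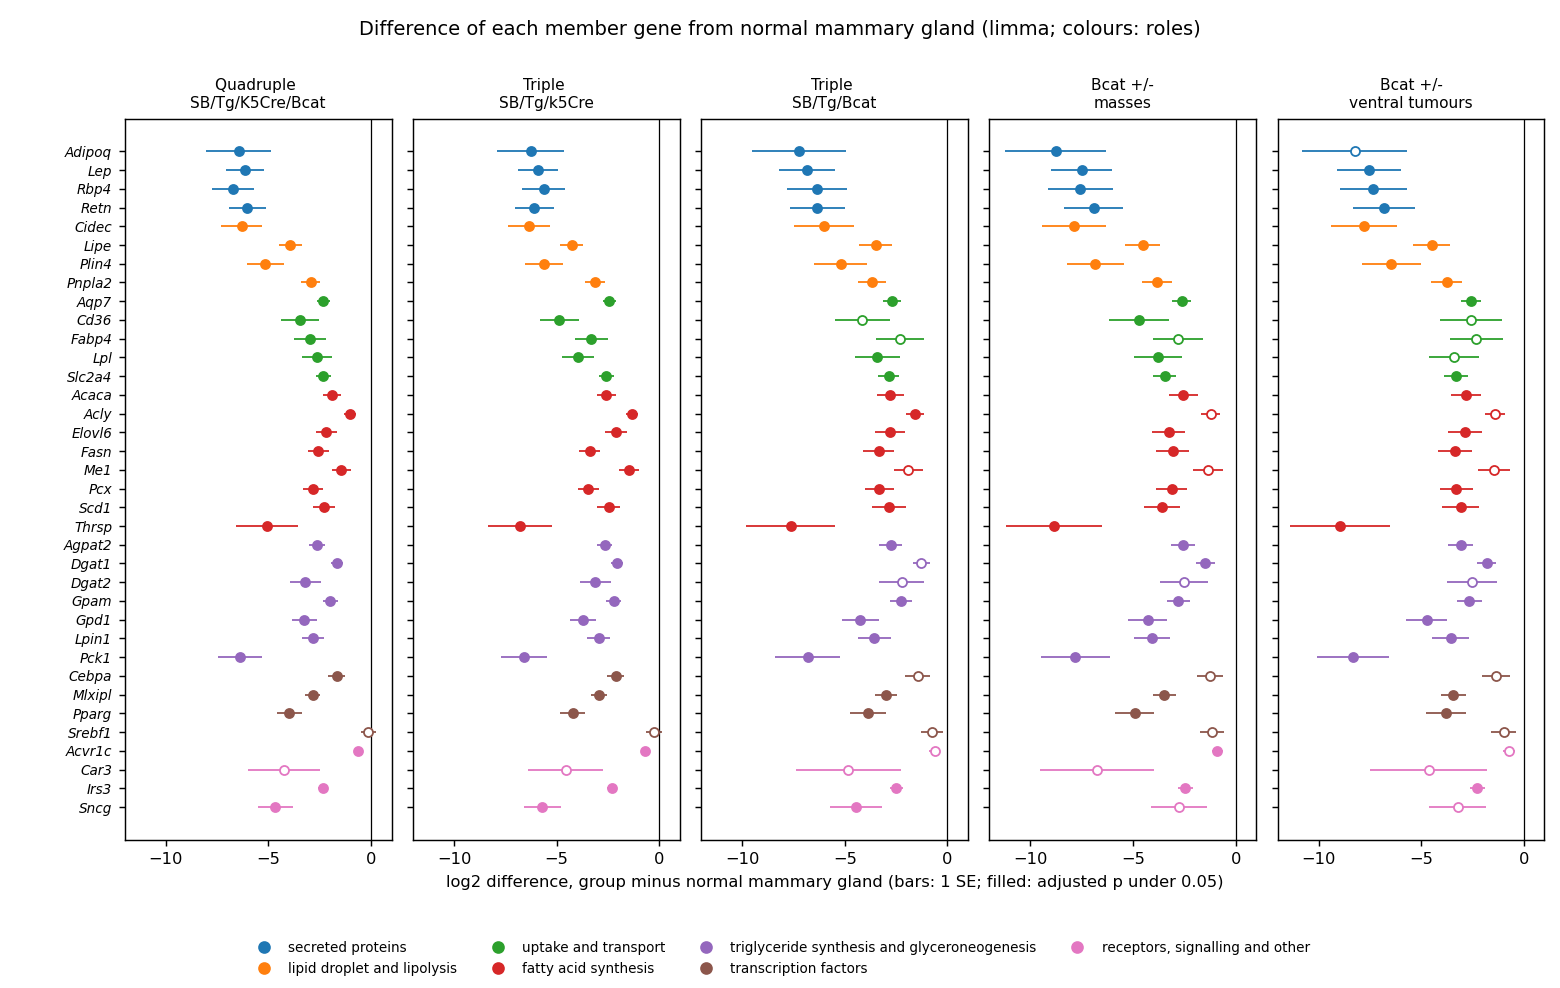
Log2 difference from normal mammary gland of the 36 members in each of the 5 other groups, with 1 SE of the limma fit; filled points have adjusted p under 0.05 and colours give roles. Every point lies left of 0, adipokines and droplet proteins lie farthest left with Pck1 and Thrsp, and Srebf1 is nearest to 0 in quadruple and triple k5Cre samples.

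Counts without a model were smaller in the large groups. In the quadruple group 8 of 36 members had all 19 arrays below every gland array, where 1.85% of all genes did. In triple k5Cre all 8 arrays of 32 members lay below the gland, where 5.66% of all genes did. Of the 4 quadruple arrays that stood apart, array 2 was at or above the lowest gland array in 27 of 36 members, array 9 in 10, array 5 in 7 and array 3 in 6. No share over all genes is given for these single-array counts, so they only rank the arrays against each other. Leaving out any 1 of these 4 arrays left 34 members called lower in quadruple samples.

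Quadruple array 2 carried the fat cell genes at nearly the gland's level, and was the highest of the 19 in 29 members. The mean of the 4 secreted proteins was 12.50 on it, against 12.60 to 12.93 in gland, and of the droplet proteins 11.13, against 11.08 to 11.78 in gland. Its muscle mean, however, was 5.34, against 10.93 to 12.50 in gland. Ucp1, the uncoupling protein of brown fat, was 6.93 on this array and at most 3.97 on the other 38. Whether fat next to the sample was included was not tested.

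Quadruple array 3 had the opposite make-up of fat cell and lipogenic genes. Adipoq was 4.11, Lep 4.28, Cidec 3.53 and Fabp4 8.36 on it, all far below the gland. Thrsp was 13.56, Srebf1 12.53, Acly 12.48 and Fasn 11.75, each within or above the gland's range. Quadruple array 5 was similar, with Thrsp 12.82, Srebf1 11.53 and Scd1 13.42 beside Lep 5.34 and Cidec 5.91. Arrays 3, 5 and 9 also held milk protein RNA: the mean over 9 milk genes was 13.31, 13.54 and 13.78, against a quadruple median of 9.28 and a gland range of 8.33 to 13.45. Wap, a whey protein of lactating epithelium, was 14.03, 14.43 and 14.57 on them. Milk means were also high on triple k5Cre array 1 (13.12) and on quadruple arrays 6 (12.46), 11 (12.24) and 10 (11.96). Means of the fatty acid synthesis members on these were 9.95, 9.69, 9.70 and 9.42. On quadruple arrays 3, 5 and 9 they were 11.28, 11.22 and 11.76. Gland array 3 had 13.22 at a milk mean of 10.99. The part of milk-producing epithelium in the lipogenic values was not tested. On quadruple array 2, Wap was 5.33.

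**Figure D4:**
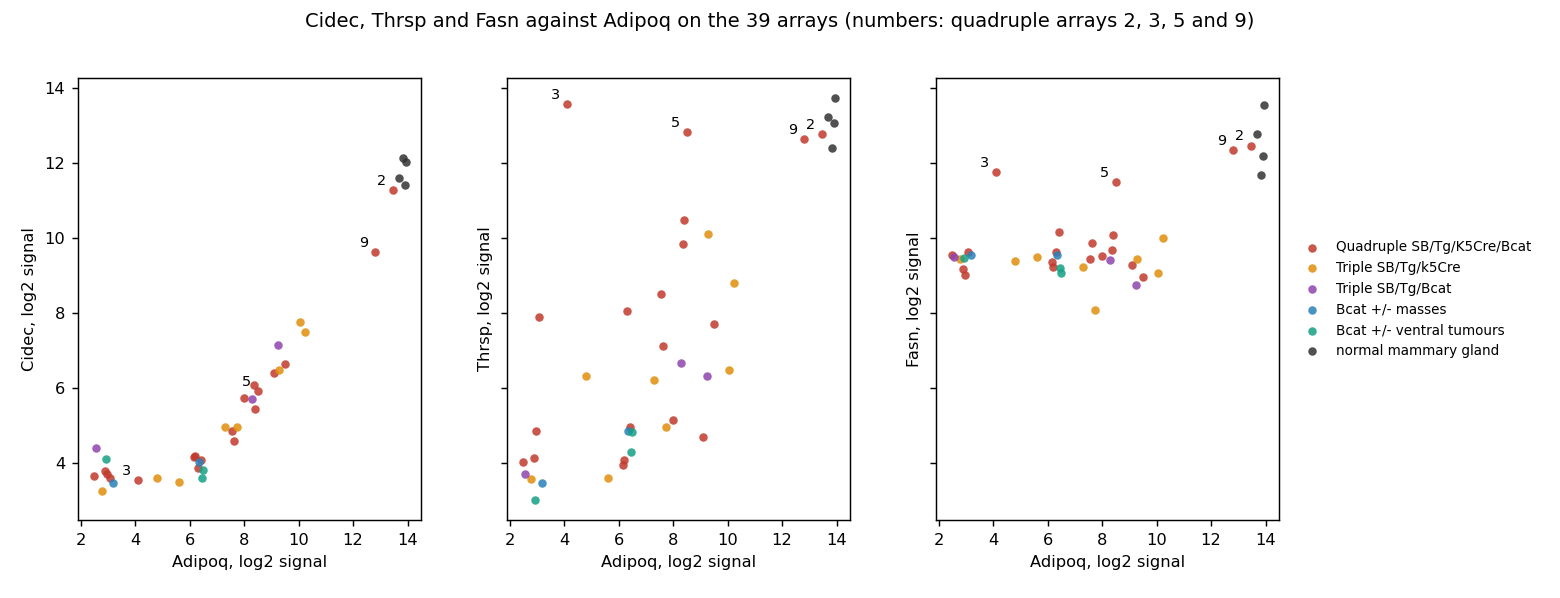
Log2 signal of Cidec, Thrsp and Fasn (y) against Adipoq (x) on the 39 arrays, coloured by group, with quadruple arrays 2, 3, 5 and 9 numbered. Cidec follows Adipoq closely, whereas Thrsp on arrays 3 (13.56, at Adipoq 4.11) and 5 (12.82) lies within the gland's range and Fasn on them (11.75 and 11.48) lies near its lower end, at much lower Adipoq than in gland.

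Members varied far more between quadruple arrays than other genes did. The median SD of a member over the 19 arrays was 1.24, beside 0.31 over all genes, and over the 4 gland arrays 0.39, beside 0.18. Car3, Thrsp and Adipoq had SDs of 3.43, 3.41 and 3.10, above 99.7% or more of all genes. Over the 15 quadruple arrays other than 2, 3, 5 and 9 the median SD of a member was 0.63, beside 0.28 over all genes, and Car3, Thrsp and Adipoq had 3.19, 2.26 and 2.40. Samples of 1 animal differed by unequal amounts. In animal Q648, quadruple arrays 8, 9 and 10 had Adipoq at 2.90, 12.81 and 7.61 and Thrsp at 4.12, 12.62 and 7.12. Both arrays of animal Q190 were closer together, with ranges of 1.82 for Adipoq and 1.07 for Thrsp, as were those of Q2154, with 3.67 and 0.09.

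Over the 15 quadruple animals, with arrays of an animal averaged, Adipoq was correlated with each of the 35 other members. Pearson's r passed for 17 members and Spearman's rho for 11, both passing for 11 (2-sided permutation test, 100000 resamples, Benjamini-Hochberg over 35). The 17 members had r of 0.62 or more, as did 4.18% of all genes; the median r was 0.61 over the members and -0.04 over all genes. Cidec (r 0.92, rho 0.95), Plin4 (r 0.92, rho 0.92), Car3 (r 0.92, rho 0.90) and Pck1 (r 0.87, rho 0.92) were closest to Adipoq, with adjusted permutation p at or under 0.000233. Retn (r 0.86, rho 0.89), Lep (r 0.85, rho 0.87), Rbp4 (r 0.83, rho 0.89), Lipe (r 0.81, rho 0.77), Fabp4 (r 0.78, rho 0.77), Pparg (r 0.78, rho 0.67) and Sncg (r 0.73, rho 0.69) followed and passed on both. Without the pair of animals farthest from the median, r was 0.92 for Cidec, 0.92 for Plin4, 0.94 for Car3, 0.81 for Pck1 and 0.84 for Fabp4, but 0.56 for Lipe, 0.50 for Sncg and 0.45 for Pparg.

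None of the 8 members of fatty acid synthesis passed over the 15 animals. Pearson's r was 0.38 for Fasn, 0.37 for Thrsp, 0.26 for Scd1, 0.25 for Acaca, 0.25 for Acly and 0.03 for Me1, with adjusted permutation p between 0.212 and 0.951. Without the same pair of animals r was -0.21 for Fasn, 0.03 for Thrsp and -0.28 for Scd1. Srebf1 had an r of -0.00 (adjusted permutation p 0.992). Of the droplet and lipolysis genes Pnpla2 did not pass either (r 0.49, adjusted permutation p 0.113), and its r was -0.06 without the pair. The difference between these r values and those of Cidec and Plin4 was not itself tested, and all genes on an array share its RNA sample.

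On Pearson's r, though not on rho, the result for fatty acid synthesis changed without the animals of quadruple arrays 3, 5 and 9. The animal of quadruple array 2, which had the highest Adipoq, was kept. Without those 3 animals, a choice made after the values were seen, 23 members passed on r and 10 on rho over the 12 others, and 27 members had r of 0.62 or more, as did 7.12% of all genes. Cidec had an r of 0.91 and Plin4 of 0.92. Acly (r 0.70, adjusted permutation p 0.0245) and Thrsp (r 0.62, adjusted permutation p 0.0479) then passed on r, though not on rho (0.45 and 0.45, each at adjusted permutation p 0.26). Fasn had an r of 0.63 (adjusted permutation p 0.0577) and Me1 of 0.09 (adjusted permutation p 0.793). No member of fatty acid synthesis passed on rho, which was 0.13 for Fasn and 0.15 for Acaca (adjusted permutation p 0.766 and 0.734). How far the higher r values rest on the animal of quadruple array 2 was not tested. Pnpla2 passed on r (0.74, adjusted permutation p 0.0179) and not on rho.

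Lpl (r 0.62), Cd36 (r 0.63), Aqp7 (r 0.69), Cebpa (r 0.64), Mlxipl (r 0.65) and Irs3 (r 0.64) passed on r but not on rho, and without the pair of animals their r was 0.10, 0.20, 0.49, 0.22, 0.30 and 0.17. These relations rest at least in part on those animals. Of the pair, 1 is the animal of quadruple array 2, whose Adipoq of 13.46 is 3.96 above the next animal mean of 9.50.

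**Figure D5:**
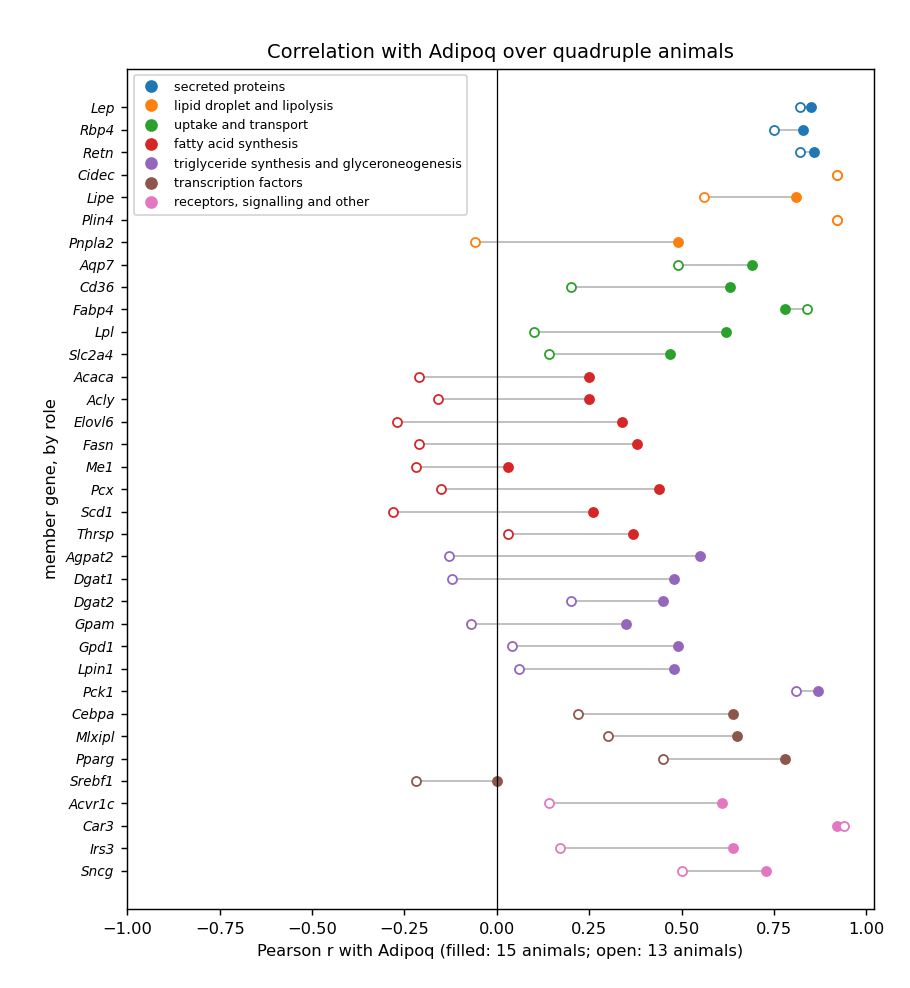
Pearson r of each member with Adipoq over 15 quadruple animals (filled) and over 13 animals, without the pair farthest from the median of Adipoq (open); colours give roles. Adipokines, Cidec, Plin4, Fabp4, Pck1 and Car3 keep r between 0.75 and 0.94, while the enzymes of fatty acid synthesis lie between -0.28 and 0.03 in the open points.

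Animals T627 and T635 each gave both a triple k5Cre breast sample and normal gland. The breast sample was below the gland in 35 of 36 members in T627 and in 36 of 36 in T635. The share of all genes below the gland in each animal is not given, so these counts have nothing to be set against. Adipoq was 7.75 in the breast sample and 13.93 in the gland of T627, and 10.24 and 13.67 in T635. Thrsp was 4.96 and 13.73 in T627, and 8.80 and 13.22 in T635. With the animal as a fixed block and only these 2 pairs, limma called 0 genes at adjusted p under 0.05, while 32 members and 14.8% of all genes had an unadjusted p under 0.05.

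No member separated quadruple samples from the other groups outside the gland. Against triple k5Cre 0 of 18194 genes were called in either direction (0% of all genes), against triple Bcat 0 members (0.033% of all genes), against Bcat masses 0 members (0.214%) and against the ventral tumours 0 members (0.143%) by limma at adjusted p under 0.05. At an unadjusted p under 0.05 the members numbered 2, 0, 1 and 0 of 36, where 4.46%, 8.39%, 8.09% and 9.43% of all genes lay. Median differences over the members were 0.21, 0.43, 0.86 and 0.64, beside medians within 0.02 of 0 over all genes. A p that misses the threshold does not show that the groups are alike, and the median SE of a member against the ventral tumours was 0.79.

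Closest to passing against triple k5Cre were Lpl (1.34 ± 0.59), Fasn (0.83 ± 0.40) and Cd36 (1.41 ± 0.72), each at limma adjusted p 0.995. Against triple Bcat they were Acaca (0.88 ± 0.55), Acly (0.53 ± 0.36) and Thrsp (2.57 ± 1.85), with adjusted p 0.635, 0.658 and 0.676. Against Bcat masses they were Slc2a4 (1.13 ± 0.49), Srebf1 (1.01 ± 0.52) and Thrsp (3.77 ± 2.04), with adjusted p 0.536, 0.639 and 0.665. Against the ventral tumours they were Slc2a4 (1.00 ± 0.52), Thrsp (3.90 ± 2.14) and Gpd1 (1.48 ± 0.87), with adjusted p 0.542, 0.57 and 0.599. All of these differences were higher in quadruple samples.

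Genes outside the members show how far the change ran along the pathway. Of 11 other adipocyte genes all 11 fell in quadruple samples (median -4.03), led by Cyp2e1 (-6.00 ± 0.91, limma adjusted p 1.44e-05) and Mrap, the melanocortin receptor partner (-5.37 ± 0.69, adjusted p 1.01e-06). Of 15 other lipid droplet genes 9 fell and none rose, led by Mgll, the monoglyceride lipase (-3.20 ± 0.59, adjusted p 0.000197) and Cavin1, a coat protein of caveolae (-2.39 ± 0.52, adjusted p 0.00114). Of 12 adipogenic regulators 6 fell and 1 rose. Ebf1 fell by 3.07 ± 0.57 (adjusted p 0.00019) and Klf15 by 2.87 ± 0.57 (adjusted p 0.000418), both transcription factors of adipogenesis. Of 13 genes of fatty acid oxidation 6 fell, among them Pdk4, a brake on glucose oxidation (-3.47 ± 0.90, adjusted p 0.00627), and Acadm, the medium-chain dehydrogenase (-1.24 ± 0.25, adjusted p 0.000487). Pdk4 and Acadm are also active in skeletal muscle, whose 12 markers all fell (median -6.05), and the muscle's part in their values was not tested.

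The 19 other lipogenic and sterol genes moved both ways in quadruple samples, 5 lower and 6 higher, with a median of 0.50. Acss2, which makes acetyl-CoA from acetate, fell by 2.23 ± 0.41 (limma adjusted p 0.000178), and Acacb, the mitochondrial acetyl-CoA carboxylase, by 1.94 ± 0.60 (adjusted p 0.023). The 6 that rose, named after their values were seen, were Cyp51, Idi1, Dhcr7, Hmgcs1, Srebf2 and Scap. Others of sterol synthesis and its control, also named after their values were seen, went otherwise: Insig1, which holds SREBP proteins back, fell by 1.75 ± 0.28 (adjusted p 3.86e-05), and Sqle (1.21, adjusted p 0.0583), Fdps (0.99, adjusted p 0.126) and Fdft1 (0.21, adjusted p 0.762) did not pass. In triple k5Cre 5 of the 19 fell and 7 rose, and in triple Bcat 3 fell and 2 rose. In Bcat masses 5 fell and 2 rose, and in the ventral tumours 3 fell and 2 rose. The share of all genes called higher is given for quadruple samples only (5.7%). The counts that rose in the other groups therefore have no such share beside them and are not read as a result.

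Markers of other cell types were read beside the members. In quadruple samples 5 of 8 fibroblast and preadipocyte genes fell (median -1.68), 4 of 9 endothelial genes fell (median -0.75) and 3 of 9 brown adipocyte genes fell (median -0.52). The brown list's 3 were Cox8b (-3.48), Cox7a1 (-2.55) and Zic1 (-0.52), the last dim at a mean of 2.53 over all arrays. Ucp1, Cidea, Dio2, Elovl3, Otop1 and Ppargc1a did not pass. Muscle markers fell in the same samples, and the part of muscle in the brown list's values was not tested. None of the 8 luminal epithelial, 9 milk, 8 macrophage or 4 sebaceous genes passed. Array means of the fibroblast list ran from 6.18 to 9.83 in quadruple samples, against 9.93 to 10.51 in gland, and those of the luminal list from 9.89 to 12.24, against 11.15 to 11.97 in gland. How much each of these cell types contributed to the members' signal was not tested.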

How the data were processed

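Total RNA was extracted with a Qiagen RNeasy kit, turned into biotinylated cRNA by an Affymetrix IVT protocol and hybridised, per the labels' protocols. The authors deposited a table of log2 signals, normalized by RMA per the submitters' processing notes, with the RMA software version not given in the sources used here, and the table was used as deposited. RMA compresses low signals towards background, so differences of dim probe sets are understated. Of 45101 probe sets, 34958 named 1 gene, and 1 per gene was kept (the highest mean, cross-hybridising _x_at sets only where no other existed), giving 18194 genes. Arrays hold no counts, so their number limits the precision.

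Groups came from the labels. limma 3.58.1 in R 4.3.3 fitted group means on all 39 arrays with eBayes and an intensity trend, the animal as a random block (consensus correlation 0.329), and Benjamini-Hochberg adjustment over all genes in each of 9 comparisons. The fit was tested on simulated data. Correlations used scipy 1.17.1. Nothing in the labels says how samples of 1 animal were taken, so p-values measure the spread between these samples. Members and lists were chosen with earlier results of these data known. Members with values on each array were those with the largest and the smallest difference in quadruple against gland in each role, and Adipoq, Lep, Fabp4, Fasn, Scd1, Srebf1 and Pparg. Promoter letters are from RefSeq, chosen after the matches were known. Alternatives were: no block, animal means, the compared groups alone, a filter on low genes, cyclic loess, array weights, means of probe sets, eBayes without a trend, no arrays low in Xist, and each array of small groups and of quadruple 2, 3, 5 and 9 left out with the correlation kept, and the animals of quadruple 3, 5 and 9 left out of the correlations (both quadruple choices made after seeing the data).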

Additional observations from a re-analysis of the deposited data

Results flagged for a closer look

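Among the 8 triple k5Cre arrays, Elovl6 was far from the others on array 7, at 9.75 with the next highest at 8.62. It was 1 of 72 sets of values looked at in this way, and chance marks about 5% of such sets. The same array had a muscle mean of 11.85, the highest of its group.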

How the results depend on the processing

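No member's difference from gland changed sign under the alternatives run, nor did the named differences between quadruple samples and another group outside the gland. Over the single-member values, 2686 kept their side of the threshold, 67 newly passed and 220 no longer passed. Members called lower than gland numbered 34 in quadruple samples, 26 to 34 with 1 array left out (26 without gland array 3) and 29 to 35 otherwise, and 34 in triple k5Cre, 29 to 34 with 1 array left out. With the animals T627 and T635 as a replicate block, the only pairing, triple k5Cre had 0 called; only 2 pairs enter that fit. Without the animal block the 5 comparisons with gland called 34, 34, 30, 28 and 27. Leaving out 1 array gave 13 to 27 in triple Bcat (27 with all), 6 to 26 in Bcat masses (28 with all) and 15 to 24 in ventral tumours (24 with all); with 1 array left in Bcat masses, that array is assumed to vary like the other groups. Animal means gave 10 in the ventral tumours, which leave 1 value for 1 animal. Without the 3 arrays low in Xist the counts were 29, 29, 20, 22 and 17. Against the ventral tumours array weights called 2 members in quadruple samples, 1 lower and 1 higher, against 0 as reported. The correlation with Adipoq passed for 31 members with all 19 arrays as points, against 17 over animals; arrays of an animal are not independent, and for 23 without the animals of quadruple arrays 3, 5 and 9. Few arrays in 3 groups limit what could be called there. The share of all genes called under each alternative is not given beside these counts.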
